A study of Mus musculus with 12 samples.

Results

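Acetylation of lysine 27 on histone H3 (H3K27ac), which marks promoters and enhancers in use, was examined at 10 genes of ventral forebrain progenitors and cortical interneurons in the E15.5 mouse cortex: Dlx1, Dlx2, Dlx5, Dlx6, Gad1, Gad2, Lhx6, Maf, Npy and Nkx2-1. They were chosen by name, as 10 of 21887 protein-coding genes, and each was read over its gene body plus 20 kb on either side. The mutant embryos were cKO (Emx1Ires-Cre; Prdm16 flox/flox), in which Cre is made from the Emx1 locus, that is, mainly in the dorsal progenitors of the cortex that give rise to excitatory neurons and glia, and removes the loxP-flanked part of Prdm16, a zinc-finger chromatin regulator. WT embryos were Prdm16 flox/flox without Cre. All 6 therefore carried the floxed alleles, and Cre was present in cKO alone. There were 3 cKO and 3 WT H3K27ac libraries from lysates of whole cortex, and nothing in the labels states whether the replicates came from separate embryos, so the p-values below measure the spread between these libraries, which may be technical. The 6 input libraries were not analysed here.

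Cortical interneurons are born outside the cortex, in the ganglionic eminences of the ventral telencephalon, and migrate into it. The homeobox genes Dlx1, Dlx2, Dlx5 and Dlx6 act in series in these progenitors and in the migrating cells and turn on the programme of GABA-releasing neurons, of which Gad1 and Gad2 encode the enzymes that make GABA. Nkx2-1 specifies the medial ganglionic eminence and is switched off in the interneurons that enter the cortex. Lhx6 acts after it, and Maf, a leucine-zipper factor, after Lhx6 in somatostatin and parvalbumin interneurons, while Npy encodes neuropeptide Y, a transmitter peptide of several interneuron classes. These cells lie largely outside the lineage in which Emx1-driven Cre is active, and they are a minority of the tissue that was lysed.

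Each library was available as a list of broad peaks. The unit used here is the covered length, the number of bases of a gene's window that lie under a peak, and it measures the extent of called acetylation, not its height. The lists held 55015 to 59209 peaks in cKO and 48168 to 75563 in WT, covering 63.5 to 72.9 Mb in cKO and 53.9 to 92.1 Mb in WT, and read depth is unknown. Covered length was therefore also scaled to each list's total, which multiplied it by 0.998 to 1.145 in cKO and by 0.790 to 1.350 in WT and moved the median log2 change of all genes to 0.05, against -0.05 without scaling. By the library identifiers, replicates 1 and 2 of both genotypes formed 1 set (set A) and replicate 3 of both another (set B), and WT replicate 3 gave the shortest list. Over the Prdm16 locus itself the scaled covered length was 94625, 95101 and 99982 bp in cKO, against 80929, 76295 and 80856 bp in WT. That difference, 0.28 on the log2 scale, missed the threshold (limma, adjusted p = 0.359), and acetylation over a window that holds undeleted sequence does not check the genotype labels. In whole cortex, fewer interneurons and less acetylation in each interneuron cannot be told apart.

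RefSeq (GRCm38.p6) gave a promoter sequence for 7 of the 10 genes. In 4 of them (Dlx1, Gad1, Gad2 and Npy), and at all 3 listed starts of Lhx6, the window of 250 bases before to 50 after the start lay wholly under a peak in all 6 lists, as did 44.1% of all 21263 promoter windows. The Dlx2 window was wholly covered in 4 lists and over 292 of its 300 bases in cKO replicate 3 and WT replicate 3. At Nkx2-1 no base was covered in any list, as in 39.0% of promoter windows. The 250 bases before the start are shown for 3 genes because they span what was seen, a promoter inside a wide acetylated domain (Dlx2), a promoter with a narrow peak whose extent differed between the libraries (Npy) and a promoter without a peak (Nkx2-1). They are written 5′ to 3′ on the gene's own strand, with CpG dinucleotides in capitals.
Dlx2, chr2:71546755-71547004, minus strand: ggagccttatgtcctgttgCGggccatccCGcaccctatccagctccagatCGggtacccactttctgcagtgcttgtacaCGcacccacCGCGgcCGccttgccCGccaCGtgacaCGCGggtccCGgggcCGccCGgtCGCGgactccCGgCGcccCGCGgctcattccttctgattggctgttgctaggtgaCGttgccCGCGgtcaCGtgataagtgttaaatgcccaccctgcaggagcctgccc
Npy, chr6:49822460-49822709, plus strand: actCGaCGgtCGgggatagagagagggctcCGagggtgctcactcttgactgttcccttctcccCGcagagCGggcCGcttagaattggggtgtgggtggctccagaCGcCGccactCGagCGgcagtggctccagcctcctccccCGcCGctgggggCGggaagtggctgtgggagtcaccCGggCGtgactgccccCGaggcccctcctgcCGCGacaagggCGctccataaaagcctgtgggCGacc
Nkx2-1, chr12:56536909-56537158, minus strand: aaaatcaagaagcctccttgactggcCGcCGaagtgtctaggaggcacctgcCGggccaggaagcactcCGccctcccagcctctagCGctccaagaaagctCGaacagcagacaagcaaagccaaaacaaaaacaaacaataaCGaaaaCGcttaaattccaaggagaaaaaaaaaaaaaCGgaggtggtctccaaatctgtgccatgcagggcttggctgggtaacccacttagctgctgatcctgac

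The Dlx2 stretch holds 24 CpG dinucleotides and the Npy stretch 21, where the median promoter has 10, and the Nkx2-1 stretch holds 9. Their GC contents are 66.4% at Dlx2, 69.2% at Npy and 50.8% at Nkx2-1, beside a median of 55.6%. Dlx1 has 22 CpG in the same stretch, Gad1 17 and Gad2 13, and the 3 starts of Lhx6 have 7, 17 and 14. Of the 5048 promoters with at least 20 CpG, 4.32% had no peak in any list. The homeodomain core TAATTA, searched on both strands, occurs in 4.31% of promoters and in none of the 7 genes, and the Nkx2 core CAAGTG occurs in 11.2% and in none of them. The E-box CAGCTG, present in 12.1% of promoters, lies 131 and 40 bases before 1 start of Lhx6, and TATAAA, present in 11.6%, lies 141 bases before the start of Gad1. These matches describe letters in a window and say nothing about binding.

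The Dlx genes lay in the widest acetylated domains of the 10. Merging overlapping peaks of the 6 lists gave 85918 regions with a median width of 940 bp. The region over Dlx1 and Dlx2, chr2:71523194-71547232, was 24039 bp wide, and 24 regions (0.0279% of all) were at least as wide. The region over Dlx6 and Dlx5, chr6:6849740-6882836, was 33097 bp wide, and 16 regions (0.0186%) were at least as wide. Of the 22 regions in the windows of the 10 genes, 5 were over 10 kb wide, against 0.286% of all regions. The other 3 lay at Lhx6, Gad1 and Gad2. The regions over Maf (4778 bp) and at the start of Npy (2110 bp) were narrower, with 2.21% and 15.9% of all regions at least as wide. These are widths after merging over the lists. In single lists the widest peak at Lhx6 was 18200 bp in WT replicate 1 and 5311 to 9455 bp in the other libraries. It was 8180 to 11914 bp at Gad1 and 9794 to 11407 bp at Gad2.

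**Figure D1:**
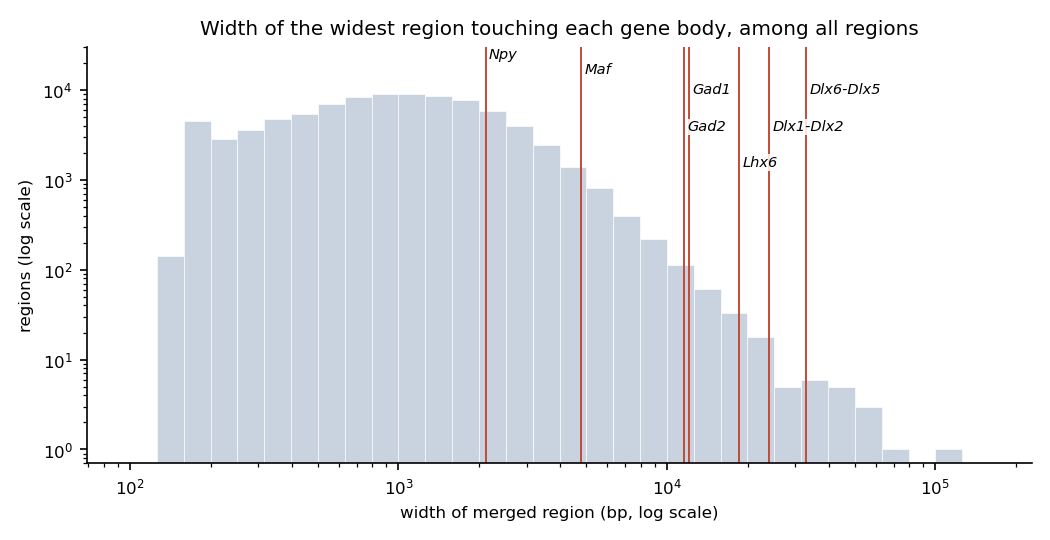
Histogram of the widths of all 85918 merged regions (both axes log scaled, width in bp), with a line at the widest region that touches each gene body. The Dlx1-Dlx2 and Dlx6-Dlx5 domains stand at 24039 and 33097 bp in the far tail, Lhx6, Gad1 and Gad2 between 11564 and 18610 bp, and Maf and Npy nearer to the bulk.

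The members of each Dlx pair are transcribed towards each other from a compact locus, and the stretch between them is known to hold enhancers active in the ventral forebrain. At Dlx1 and Dlx2 the 9426 bp between the gene bodies were covered in full in all 3 cKO libraries, and over 9211, 9426 and 8263 bp in WT. At Dlx6 and Dlx5 the intervening 9830 bp were covered over 9830, 9830 and 9139 bp in cKO, against 9830, 9830 and 8868 bp in WT. The bodies of Dlx1 and Dlx5 were fully covered in all 6 libraries, that of Dlx2 in all but WT replicate 1 (83.6%), and that of Dlx6 in all but WT replicate 3 (89.9%). Both domains ended close to 1 gene of the pair and ran on past the other. Peaks covered 1.21 to 2.39% of the 20 kb beyond Dlx2 and 1.12 to 3.84% of the 20 kb beyond Dlx5. On the opposite sides they covered 33.6 to 50.4% of the 20 kb beyond Dlx1 and 56.1 to 65.9% of the 20 kb beyond Dlx6. On the Dlx1 side a separate region in Metap1d, chr2:71514511-71518910, was present in every list, 9203 bp from Dlx1.

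**Figure D2:**
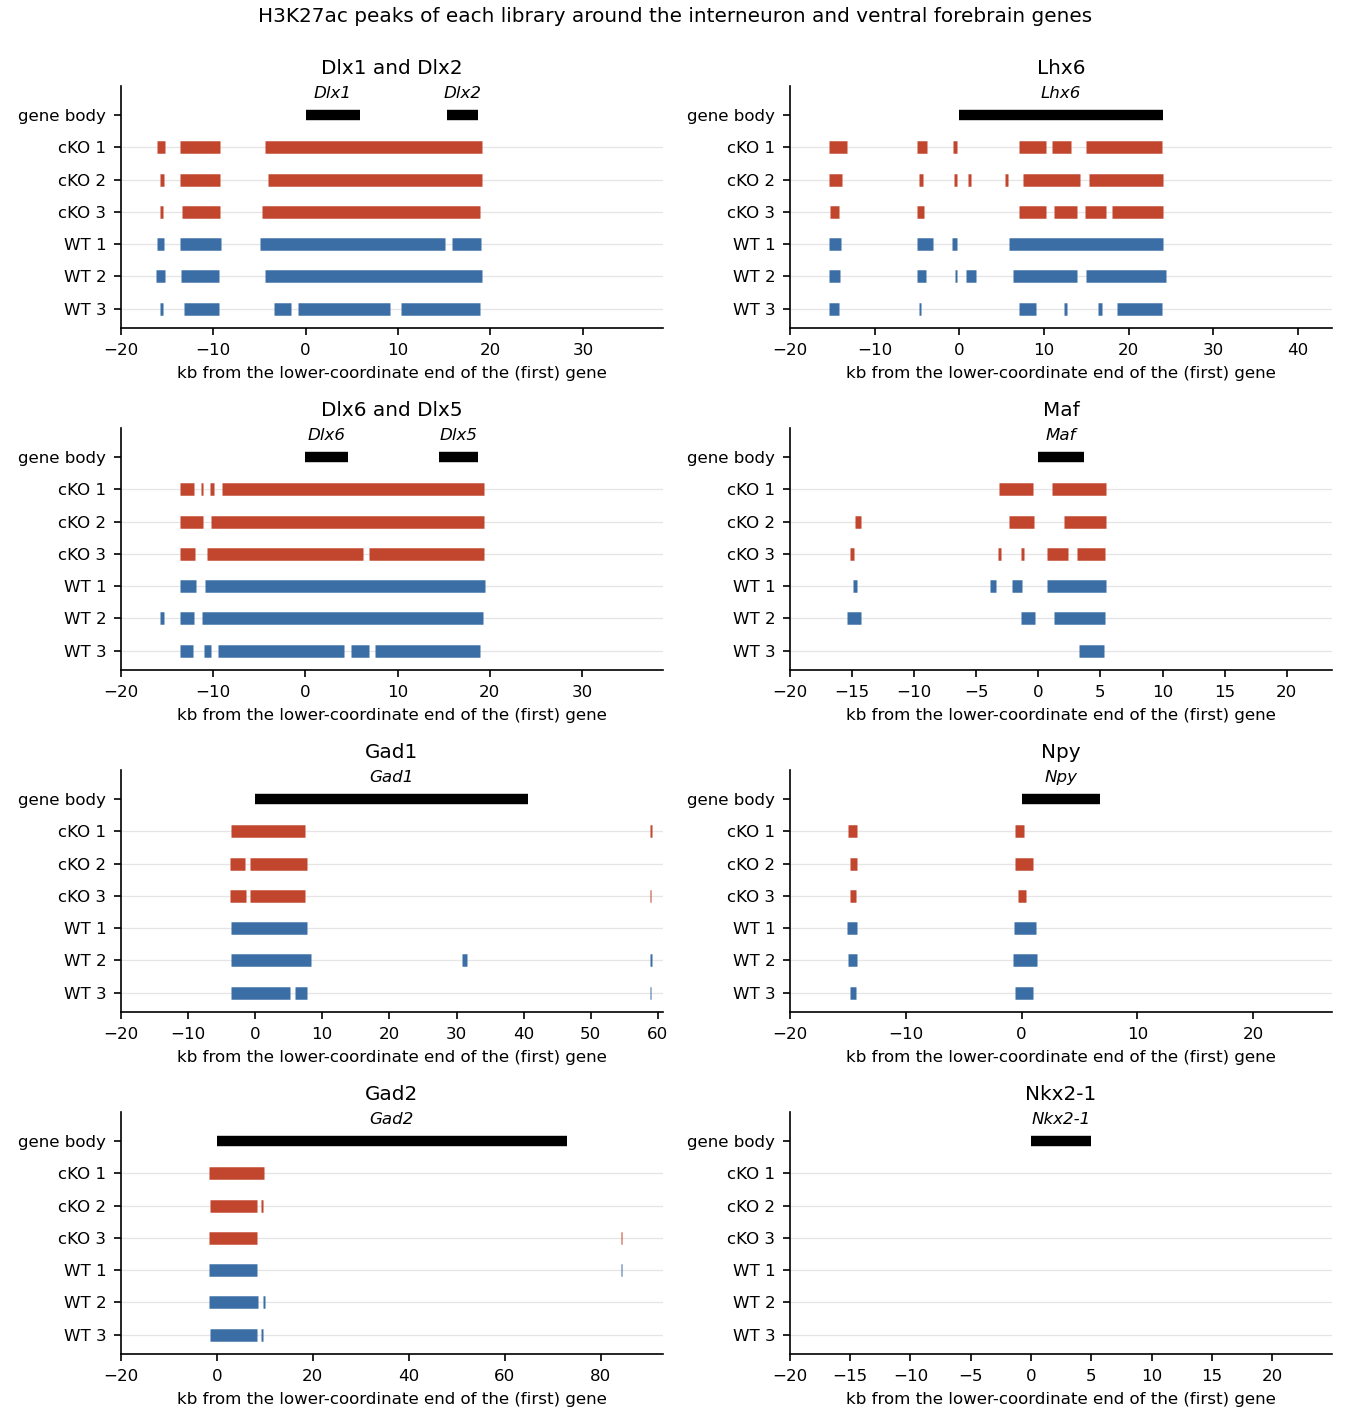
Peaks of each library (cKO above WT, 1 row per list) in the windows of the 10 genes, with distance in kb from the lower-coordinate end of the gene, or of the first gene of a pair, on the horizontal axis. Bars are peaks and black bars are gene bodies. The Dlx pairs lie under nearly continuous peaks in every library, Gad1 and Gad2 are covered at their starts, and Nkx2-1 has no peak.

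No difference in covered length between the genotypes passed the test at the Dlx genes. Dlx1 had 28616, 27933 and 28112 bp covered in cKO and 28312, 28523 and 24443 bp in WT. Dlx2 had 23420, 23162 and 23560 bp in cKO and 22932, 23479 and 20366 bp in WT. In both genes the groups overlap, and WT replicate 3 is the lowest value. Dlx5 had 24882, 24881 and 24181 bp in cKO and 25036, 24800 and 23063 bp in WT. Dlx6 had 30567, 31947 and 31019 bp in cKO and 32080, 32454 and 29133 bp in WT. For these 2 genes the highest and the lowest library were both WT.

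Scaled to the list totals, Dlx1 averaged 29812 ± 2049 bp in cKO and 26758 ± 5522 bp in WT (SD, n = 3 each), and Dlx6 averaged 32944 ± 2500 bp in cKO and 31001 ± 7319 bp in WT. The log2 changes of the 4 Dlx genes were between 0.11 (Dlx6, 95% interval -0.15 to 0.37) and 0.18 (Dlx2, 95% interval -0.07 to 0.43), and none was called (limma, adjusted p 0.670 to 0.833). Within set A all 4 were positive (0.24 to 0.28), and within set B all 4 were negative (-0.17 to -0.03). The windows of Dlx1 and Dlx2 share 30574 bp and those of Dlx5 and Dlx6 share 30170 bp, so the 4 genes are 2 loci. Without scaling the changes were between -6.5e-04 (Dlx6) and 0.07 (Dlx2). Dlx5 and Dlx6 lie on chromosome 6, as does Emx1, the Cre driver's locus, at a gap of 78.3 Mb.

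Gad1 and Gad2, which encode the 2 glutamate decarboxylases, were acetylated at their starts and not along their long bodies. The region at Gad1, chr2:70557537-70569633, was 12097 bp wide and that at Gad2, chr2:22619432-22630995, was 11564 bp wide. Peaks covered 17.0 to 22.2% of the Gad1 body and 11.6 to 13.5% of the Gad2 body. Gad1 had 11268, 10755 and 10822 bp covered in cKO and 11405, 12871 and 10762 bp in WT. Gad2 had 11407, 10307 and 10218 bp in cKO and 10313, 10345 and 10284 bp in WT, so that the 3 WT libraries lay between 10284 and 10345 bp. In both genes the groups overlap.

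After scaling, Gad1 averaged 11561 ± 722 bp in cKO and 11555 ± 2581 bp in WT, a log2 change of 0.02 (95% interval -0.23 to 0.27; limma, adjusted p = 0.963). Gad2 averaged 11223 ± 570 bp in cKO and 10356 ± 3086 bp in WT, a log2 change of 0.15 (95% interval -0.14 to 0.43; limma, adjusted p = 0.794). At both genes the sets went opposite ways, with 0.14 in set A and -0.22 in set B at Gad1, and 0.34 in set A and -0.24 in set B at Gad2. Gad2 was 0.34 without cKO replicate 3 or WT replicate 3, and both of these fits compare the genotypes within set A alone. It was 0.06 without cKO replicate 1 and 0.05 without WT replicate 2. Without scaling the change was -0.09 at Gad1 and 0.04 at Gad2. A peak inside the Gad1 body far from the start occurred in WT replicate 2 alone.

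**Figure D3:**
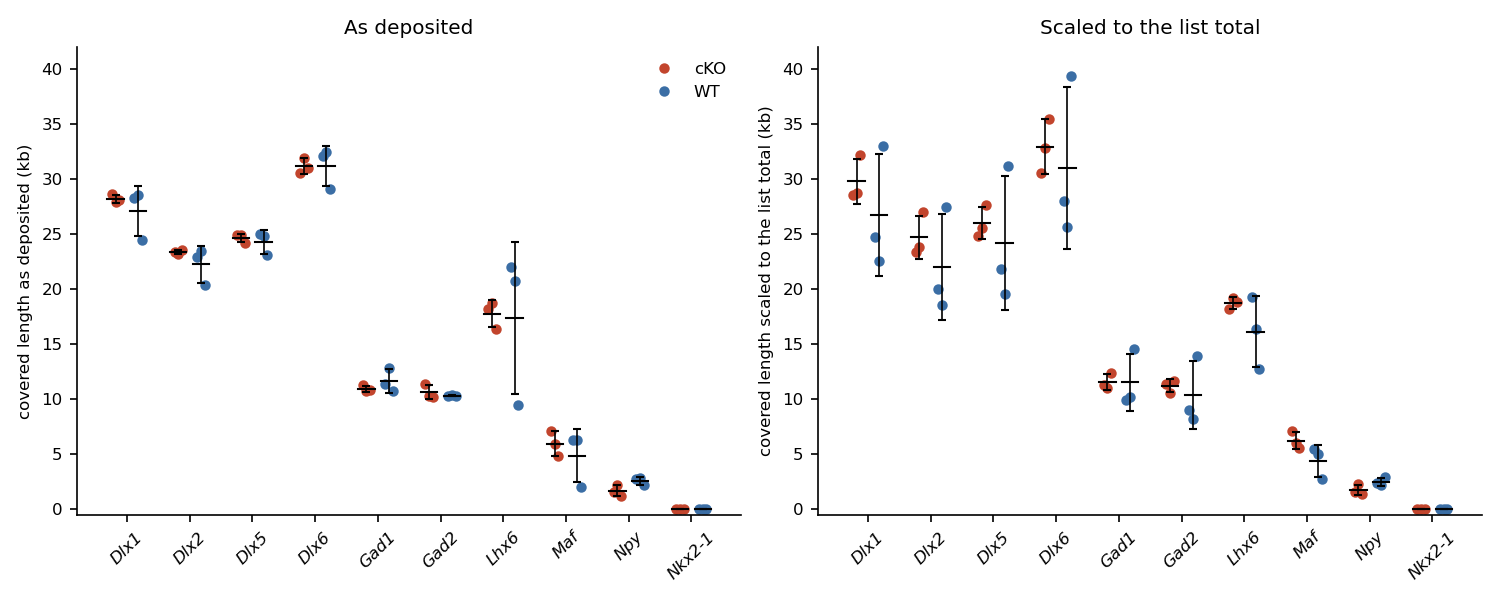
Covered length (kb) of the window of each gene in each library, as deposited on the left and scaled to the list total on the right. Points are libraries, cKO left of WT, and bars are mean and SD (n = 3). By their means the genes stand in the same order in both genotypes and both panels, and the groups separate at Maf after scaling.

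Lhx6, a LIM-homeobox factor needed for the migration and maturation of interneurons of the medial ganglionic eminence, was covered towards its start. Its main region, chr2:36087798-36106407, was 18610 bp wide. The window had 18204, 18707 and 16423 bp covered in cKO and 22032, 20710 and 9471 bp in WT. The cKO values lie within the WT range, whose lowest value, WT replicate 3, comes from the shortest list. Scaled, Lhx6 averaged 18728 ± 529 bp in cKO and 16133 ± 3235 bp in WT, a log2 change of 0.23 (SE 0.13; 95% interval -0.05 to 0.51; limma, adjusted p = 0.608). The change was 0.07 within set A and 0.54 within set B, and it was -0.01 in the 2 kb around the gene's ends.

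Maf had the highest log2 change of the 10 genes. As deposited the window had 7110, 5887 and 4850 bp covered in cKO, against 6255, 6338 and 2056 bp in WT. These values overlap, and WT replicate 3 is the lowest. After scaling the values were 7096, 6048 and 5551 bp in cKO and 5464, 5007 and 2776 bp in WT, with all cKO libraries above all WT libraries, as at 7.08% of the 15359 genes tested. The log2 change was 0.49 (SE 0.14; 95% interval 0.20 to 0.79), and it missed the threshold after adjustment over all genes (limma, adjusted p = 0.158). It was 0.30 within set A, 0.89 within set B, 0.38 without scaling (adjusted p = 0.966) and 0.02 when every list was cut to the same number of peaks.

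Within the Maf window the values differed most in a block beside the gene. The region over the gene and its start, chr8:115703943-115708720, had 4334, 3357 and 3989 bp covered in cKO and 4719, 4116 and 2056 bp in WT, a log2 change of 0.28 (limma over regions, adjusted p = 0.728). The neighbouring block, chr8:115699998-115702982, 271 bp from the lower-coordinate end of the gene, had 2776, 2019 and 547 bp covered in cKO, against 785, 1119 and 0 bp in WT. Here cKO replicate 3 falls among the WT libraries, and within each set the cKO libraries are the higher ones. The scaled log2 change was 1.62 (SE 0.22; 95% interval 1.06 to 2.18), and it missed the threshold over all regions tested (limma, adjusted p = 0.0814, and 0.226 without scaling, where 0.405% of regions were called). Peaks in this block were weak by the authors' caller, with fold enrichments of 3.04 to 4.52 where present, whereas those over the gene had 5.32 to 7.09.

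Npy was the sole gene of the 9 tested with a negative change. Its window held 2 short regions. The distal one, chr6:49807646-49808496, 14214 bp from the gene, had 751, 643 and 561 bp covered in cKO and 818, 736 and 572 bp in WT. The one at the start, chr6:49821929-49824038, had 830, 1568 and 682 bp covered in cKO, against 1900, 2110 and 1602 bp in WT. At the start all cKO libraries were below all WT libraries, without any scaling, as in 5.94% of the 39889 regions with a peak in every list. The distal region overlapped between the genotypes.

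The extents of the Npy start peak differed most on the side of the gene body. From the start of transcription it reached 238, 1013 and 357 bp into the gene in cKO and 1220, 1328 and 1010 bp in WT. In the other direction it reached 591, 554 and 324 bp in cKO and 679, 781 and 591 bp in WT. The 300 bp promoter window was fully covered in all 6 libraries, so the Npy promoter printed above lay under a peak in every cKO library too. cKO replicate 2 lies among the WT libraries in its reach into the gene.

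Over the whole window Npy had 1581, 2211 and 1243 bp covered in cKO and 2718, 2846 and 2174 bp in WT. The scaled log2 change was -0.43 (SE 0.15; 95% interval -0.76 to -0.11), which missed the threshold after adjustment over all genes (limma, adjusted p = 0.302). It was -0.23 within set A, -0.84 within set B and -0.52 without scaling. Read over the 2 kb on either side of the gene's ends, the scaled values were 828, 1611 and 781 bp in cKO, against 1660, 1667 and 2163 bp in WT. In that window covered length fell by 0.60 on the log2 scale (SE 0.13; limma, adjusted p = 0.00117), where 0.992% of 11084 genes were called. That call was lost without cKO replicate 1 (-0.47, limma adjusted p = 0.222) and without scaling (-0.67, adjusted p = 0.987). It was also lost without cKO replicate 3 (-0.37, limma adjusted p = 0.227) or WT replicate 3 (-0.37, adjusted p = 0.231). The fits without a replicate 3 both compare the genotypes within set A alone, so they are not separate checks. The covered bases in that window were those of the start peak alone, so the region fit that follows reads the same bases. Fitted as a region, with 200 bp added instead of 500, the start peak had a log2 change of -0.72 (SE 0.30; limma over regions, adjusted p = 0.508). Npy lies on chromosome 6, 35.4 Mb from Emx1.

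**Figure D4:**
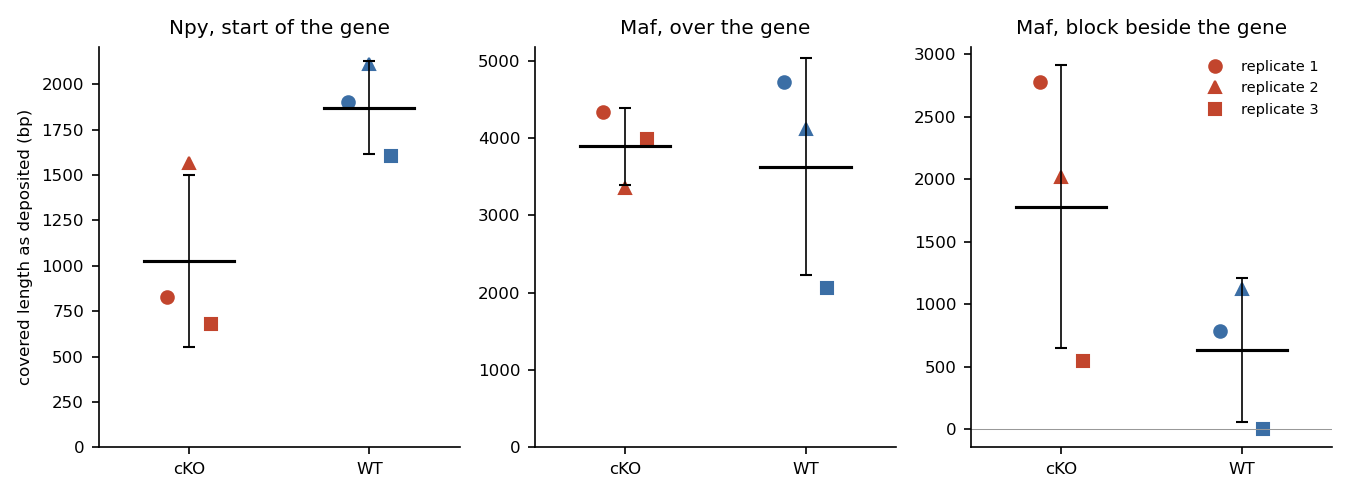
Covered length as deposited (bp) in each library at the start region of Npy, the region over Maf and the block beside Maf, cKO left of WT. Symbols mark the replicate number, and bars are mean and SD (n = 3). The cKO libraries lie below the WT libraries at Npy, overlap them over Maf, and lie above the WT library of the same set in the block beside Maf.

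Nkx2-1 had no covered base in any of the 6 lists, over its body or either flank. It shared this with 4480 genes, 20.5% of all. The nearest peak to the gene body was 99965, 185646 and 185732 bp away in cKO and 99873, 99906 and 185751 bp away in WT. The gene was not tested, and at the unknown depth of these libraries an absent peak does not show absent acetylation.

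Ordered by the share of the window under a peak, averaged over the 6 libraries, the genes ran from Dlx6 (69.9%) through Dlx1 (60.3%), Dlx5 (55.3%) and Dlx2 (52.6%) to Lhx6 (27.5%), Gad1 (14.0%), Maf (12.4%), Gad2 (9.28%), Npy (4.55%) and Nkx2-1 (0%). Long bodies lower this share at Gad1 and Gad2. Among all protein-coding genes 0.0320% were covered over at least the share of Dlx6, 0.146% over that of Dlx2, 1.04% over that of Lhx6 and 41.8% over that of Npy. Over the libraries Dlx6 (65.3 to 72.7%) lay above Dlx1 (53.3 to 62.4%), Dlx2 (47.0 to 54.4%) above Lhx6 (14.8 to 34.4%), and Gad2 (9.05 to 10.1%) lay above Npy (2.66 to 6.08%). The ranges of the other neighbours with peaks overlapped. Dlx5 (52.1 to 56.6%) did so with Dlx1 and Dlx2, Lhx6 with Gad1 (13.3 to 15.9%), and Maf (4.71 to 16.3%) with Gad1 and Gad2. Compared within each library, Dlx1 was above Dlx5, Dlx5 above Dlx2 and Lhx6 above Gad1 in all 6. Maf was above Gad1 in some libraries and below it in others, and above Gad2 in all but WT replicate 3.

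Taking the 10 genes as a group, 9 were long enough to be tested and 0 were called by limma, where 0.690% of the 15359 genes tested were. Maf and Npy, 2 of 9, had an unadjusted p under 0.05, as did 9.95% of all genes. The change was positive in 8 genes and negative in 1, with a median of 0.15, beside a median of 0.05 and 65.3% positive over all genes. Without scaling it was positive in 6 and negative in 3, with a median of 0.04 beside -0.05, and 0 were called (0.00651% of all genes). Without cKO replicate 2, Maf and Npy were called (limma, adjusted p = 0.0262 and 0.0239), where 1.46% of all genes were. The scaled values of the genotypes were separate at Maf alone. No gene had all scaled cKO values below WT (4.54% of all genes), and as deposited none of the 9 had all cKO values above WT (1.11%) or below WT (2.21%). In 6 of the 9 the change was positive in set A and negative in set B, which held for 43.4% of all genes. The Dlx genes, whose windows overlap in pairs, are among these 6 and among the 8 positive ones. Among the 22 regions in the windows, 12 had a peak in all 6 lists (54.5%, against 46.4% of all regions), 1 of them, at the Npy start, with all cKO libraries below WT as deposited and 0 with all above (2.89% of such regions). None had a peak in all cKO lists and no WT list (0.347% of all regions) or in all WT lists and no cKO list (0.907%). Of 14 regions long enough to be tested 0 were called by limma, where 0.595% of 49763 were, and 1, the block beside Maf, had an unadjusted p under 0.05, as did 10.1% of all.

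**Figure D5:**
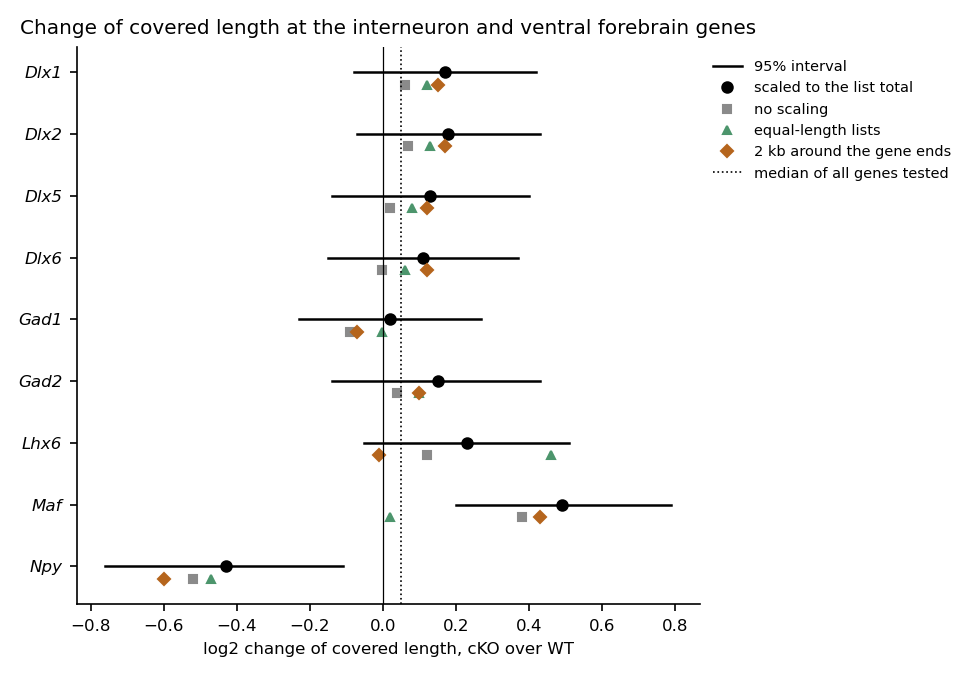
Log2 change of covered length, cKO over WT, for the 9 genes tested. Black points are the values scaled to the list total with their 95% intervals, and the other symbols are the values without scaling, with lists of equal length and in the 2 kb around the gene ends. The dotted line is the median of all genes, 0.05. Intervals of the Dlx genes, Gad1, Gad2 and Lhx6 include 0, and those of Maf and Npy do not before adjustment.

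Genes listed for the same pathway and for ventral and dorsal lineages were read in the same way. Their counts stand beside 0.690% called, 65.3% positive and a median of 0.05 over all genes. Of 5 genes for GABA transport and breakdown all were tested and 0 were called (limma), with 4 positive, 1 negative and a median of 0.06. Slc32a1, the vesicular GABA transporter, had a log2 change of 0.15. Of 13 ventral progenitor factors 5 were tested and 0 called, with all 5 positive and a median of 0.12 (0.01 without scaling). Olig1, Nkx6-2 and Otx2 had no peak in any list, and Gsx1 and Gsx2, which pattern the lateral ganglionic eminence, had at most 219 and 339 bp. Sp8, a zinc-finger factor of the ventral progenitor list, had a log2 change of 0.21.

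Of 16 genes listed for interneurons from the medial ganglionic eminence or for migrating interneurons, 14 were tested and 0 called (limma). Of these 13 were positive and 1 negative, with a median of 0.13 (0.02 without scaling). Their summed scaled length was 235524 to 243365 bp in cKO and 215214 to 232782 bp in WT. In the sums of the 10 genes, bases shared by the windows of a Dlx pair count under both genes. These sums (156753 to 172174 bp in cKO and 128269 to 177911 bp in WT) overlapped between the genotypes. So did those of the GABA, ventral progenitor, caudal and lateral eminence and dorsal lists. Long windows weigh most in such a sum, as Zeb2 (40530 to 72042 bp as deposited) and Sox6 (35784 to 57974 bp) did here. The lysates were of whole cortex, so these sums are not readings of interneurons alone. The sums are given after scaling alone, and how often sums of other gene sets separate was not tested. Ackr3, a chemokine receptor of migrating interneurons, had a log2 change of 0.29 (limma, adjusted p = 0.419), and Sstr2, a somatostatin receptor, one of 0.22. Of 14 genes of the caudal and lateral eminences 10 were tested and 0 called, with 6 positive, 4 negative and a median of 0.11. Calb2, which encodes calretinin, had 1652, 2181 and 557 bp in cKO and 2091, 2881 and 1453 bp in WT after scaling, a log2 change of -0.50 (limma, adjusted p = 0.227). Foxp1 had 0.24, and Vip had no peak in any list. In the 15 genes of the dorsal excitatory lineage, in which the Cre is active, 0 were called, with 9 positive, 6 negative and a median of 0.04. Bcl11b, a factor of deep-layer projection neurons, had a log2 change of 0.16.

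Markers of further cell types in whole cortex also gave 0 calls (limma), with 3 of 5 tested for microglia, 2 of 5 for meninges, 3 of 5 for endothelium and pericytes and 4 of 5 for the oligodendrocyte lineage. None of these 20 markers was at 0 in every library, although Cx3cr1, P2ry12 and C1qa of microglia, Cldn5 and Kdr of endothelium and Col1a2, Foxc1 and Dcn of meninges were at 0 in at least 1. Summed over the list, microglia markers had 8162 to 9441 bp in cKO and 10217 to 10689 bp in WT after scaling, and meninges markers 7314 to 8546 bp in cKO and 9191 to 10805 bp in WT. Endothelium and pericyte markers had 11328 to 12580 bp in cKO and 11636 to 15156 bp in WT, and oligodendrocyte lineage markers 12198 to 15196 bp in cKO and 10176 to 13913 bp in WT. Of the tested markers 1 was positive and 2 negative in microglia, 1 positive and 1 negative in meninges, 2 positive and 1 negative in endothelium and pericytes, and 2 positive and 2 negative in the oligodendrocyte lineage. C1qa, a microglial complement gene, had 2000, 0 and 238 bp in cKO and 1708, 1532 and 833 bp in WT after scaling. Its log2 change was -0.90 (SE 0.39, limma adjusted p = 0.463), although its highest value was in cKO replicate 1. Csf1r had a log2 change of -0.29, Pdgfrb of pericytes -0.31 and Pecam1 of endothelium 0.07, Col1a1 -0.12 and Lum 0.08. In the oligodendrocyte list, whose changes ran between -0.27 and 0.49, Cspg4 had 0.49 and Sox10 0.38 (limma, adjusted p = 0.264 and 0.283). The microglia and meninges sums were lower in every cKO library than in every WT library, and the oligodendrocyte and endothelium sums overlapped. Much of the microglia sum came from Aif1 (5444 to 7011 bp as deposited) and much of the meninges sum from Col1a1 (4388 to 6530 bp). How often sums of other gene sets separate was not tested. The part of these cell types in the results at Npy and Maf was not tested either.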

How the data were processed

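Unfixed chromatin of whole cortex was cut with micrococcal nuclease before H3K27ac precipitation, and libraries of 100 to 800 bp were selected after 11 PCR cycles, per the labels' protocols. The submitters' processing notes name MACS2 2.1.1, Bowtie2 2.2.8, cutadapt and FastQC, and mm10 as the build. What each did, with which settings, and whether inputs served as controls is not given in the sources used here, and neither is any pooling. The authors deposited 1 broad peak list per library, in which the peak caller gave each peak a display score. The deposited fold enrichment of a peak is the ratio to the caller's own background, and was used to describe peaks. The authors' lists also give the -log10 of a p-value and of a q-value. The lowest deposited -log10 q was 1.31 to 1.39. No read counts were used.

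From the intervals, the bases under peaks were counted in each protein-coding gene body plus 20 kb (RefSeq, GRCm38.p6), scaled to the mean list total and compared as log2(bp + 500) with limma 3.58.1 (R 4.3.3), with the library set as a covariate. Adding 500 bp shrinks the changes of short totals. Genes with a mean of at least 1000 bp were tested, and Benjamini-Hochberg adjusted p below 0.05 was called. Regions were peaks merged over the 6 lists, tested from a mean of 300 bp with 200 bp added. Scripts were tested on simulated data. The genes and lists, among them the marker lists, were chosen with earlier results of these data known. Besides the 10 genes, the text names from each list the 2 genes with the smallest p, and genes at or near 0, chosen after their values were seen. Some of these genes are not reported here. Alternatives were other scalings, windows, peak thresholds, covariates, added constants and leaving out each library. The region fit, scaling to the total over gene windows and the combined settings at the Npy ends were chosen after seeing the data.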

Additional observations from a re-analysis of the deposited data

How the results depend on the processing

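Over 19 alternative settings the median log2 change of the 9 genes was 0.04 (no scaling) to 0.27. It was 0.05 without WT replicate 2 and 0.27 without cKO replicate 3 or WT replicate 3. Leaving out either replicate 3 leaves 1 library in set B, which the set covariate takes up. Both fits therefore compare the genotypes within set A and are not separate checks. The median of all genes given above, 0.05, is that of the main fit, and the medians of all genes with a library left out are not given here. Regions of 1 genotype were counted again under 10 settings (stricter -log10 q, lists of equal length, 50% coverage of the region, merging over 1 kb and each library left out), and 0 were found. The number of genes called was 2 without cKO replicate 2 (Maf 0.61, limma adjusted p = 0.0262, and Npy -0.61, adjusted p = 0.0239, where 1.46% of all genes were called), 1 in the 2 kb around the gene ends (Npy -0.60, adjusted p = 0.00117) and 0 otherwise, so leaving out single libraries gave 0 to 2. Adjusted p over the settings ran between 0.0262 and 0.991 at Maf and between 0.00117 and 0.732 at Npy. Maf was -0.01 and Lhx6 -0.90 with peaks of -log10 q of at least 5. Gad1 turned to -0.0032 with lists of equal length, -0.09 without scaling, -0.03 after quantile normalization, -0.07 around the gene ends, -0.01 scaled to gene windows, and ranged from -0.02 to 0.14 when single libraries were left out, below 0 without cKO replicate 1 (-0.02), cKO replicate 2 (-0.01), WT replicate 1 (-0.02) or WT replicate 2 (-0.01). Dlx6 was -6.5e-04 without scaling, Lhx6 -0.01 around the gene ends, and Npy 0.31 with 100 kb on each side (adjusted p = 0.199). The causes of these reversals were not tested. Over all genes 106 were called, against 1 without scaling, 42 scaled to gene windows, 225 without cKO replicate 2, 232 without cKO replicate 1, 6 without WT replicate 2, and 2 and 3 without replicate 3 of cKO and of WT. Same-numbered libraries correlated at 0.132, 0.063 and 0.261 in their deviations from the group means, and differently numbered ones at -0.225 to 0.167. Replicates 2 and 3 of cKO correlated best with the WT library of their own number, and cKO replicate 1 with WT replicate 2 (0.167). Nothing in the labels ties equal numbers to each other, so the main fit does not pair them. With the replicate number as a block, 0 of the 9 genes and 168 of all genes were called, and the median of the 9 was 0.15. The unknown depth limits what an absent or short peak can show.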

Other observations

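Outside the windows of the 10 genes, the covered lengths most like the mean of the 9 tested genes over the 6 libraries were those of E4f1 (Pearson r = 0.9964), Gabrg1 (0.9946) and Zfp46 (0.9946), among 15343 genes compared. The 6 points share their list lengths and library sets, and these values are a description.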
